A study of Mus musculus with 6 samples.

Results

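The unfolded protein response and the integrated stress response were followed through 32 genes in mouse cells derived from the ovarian surface epithelium (MOSE), the layer around the ovary. The set is a list of gene names, with no measured value in its rule, but it was chosen with earlier results of these data known. Counts over the set are therefore not independent evidence. Its members were found by symbol among the 25006 genes counted. All 32 were matched. RNA sequencing gave 6 libraries of total RNA, 3 from the stable line MOSE-NEO, the reference, and 3 from the stable line MOSE-PAX8, made to overexpress PAX8, a paired-box transcription factor. Both lines were kept under the same selection, G418 at 0.05 mg/mL, and the labels name no treatment. Each group is 1 line, and the labels do not tie its 3 libraries to separate cultures. The p-values therefore rest on a spread between libraries that may be technical, and an effect of PAX8 cannot be told apart from other differences between the lines.

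Proteins that enter the endoplasmic reticulum (ER) are folded there by chaperones and disulfide isomerases. When unfolded protein builds up, the ER membrane sensors IRE1, PERK and ATF6 signal to the nucleus: IRE1 splices the mRNA of the transcription factor XBP1, ATF6 is cut to release a transcription factor, and PERK phosphorylates the translation factor eIF2alpha. Other kinases phosphorylate eIF2alpha on amino acid shortage, haem shortage or double-stranded RNA, and this shared branch, the integrated stress response, raises translation of ATF4, a factor that drives amino acid synthesis, amino acid transport and tRNA charging. XBP1 and ATF6 are best known for the ER chaperones, ATF4 for the metabolic enzymes. The splicing of Xbp1, the cutting of ATF6 and the translation of Atf4 are not visible in counts per gene.

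The libraries held 23623762 to 36367825 counts. Counts of Pax8 were 0, 1 and 1 in MOSE-NEO libraries 1 to 3 against 2570, 2973 and 3544 in MOSE-PAX8 libraries 1 to 3, as the labels have it. MOSE-NEO 1 and MOSE-PAX8 2 stood apart by their share of long intergenic non-coding RNA (lincRNA), 0.317% and 0.330% of counts against 0.146% to 0.195% in the other libraries. Of the 13 markers of ovarian surface epithelium and mesothelium, Upk3b, Podxl, Krt7 and Wt1 were abundant in both lines, while Krt8 (0.283 to 1.08 CPM, counts scaled to the size of the library) and Krt19 (0.133 to 0.478 CPM) were near 0; the test called 2 of the 13 higher and 7 lower, and their summed level was 7989 to 9160 CPM in MOSE-PAX8 against 13154 to 14518 CPM in MOSE-NEO. The 6 stromal fibroblast genes summed to 12400 to 13187 CPM in MOSE-PAX8 against 19901 to 23255 CPM; 3 were tested and 1 was called lower, Col3a1 (9115 to 9696 against 16106 to 18846 CPM), while Dcn overlapped and Pdgfra, Lum and Dpt were near 0. Leukocyte genes summed to 9.09 to 16.9 CPM in MOSE-NEO and to at most 10.2 CPM in MOSE-PAX8, with Adgre1 at 0, 1 called higher (Ptprc, at most 0.0332 CPM against 1.54 to 2.68 CPM) and 1 lower (Csf1r, 7.13 to 13.4 CPM against 3.62 to 5.25 CPM). Endothelial genes summed to at most 1.03 CPM, with Cdh5 at 0. Granulosa and theca genes summed to 442 to 541 CPM in MOSE-NEO and 374 to 414 CPM in MOSE-PAX8, most of it Star (410 to 509.5 CPM and 348 to 389 CPM), with Fshr, Cyp19a1 and Hsd3b1 at 0, 1 called higher and 2 lower; Foxl2 was at most 0.0435 CPM in MOSE-NEO and at 1.48 to 2.40 CPM in MOSE-PAX8. The part of these marker differences in the results was not tested.

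Each of the 5 roles held at least 1 called gene. Of the 7 enzymes of amino acid and one-carbon synthesis, 3 were called higher in MOSE-PAX8 and 0 lower, led by Psat1 (2.31-fold) and Shmt2 (1.73-fold). Nupr1, a small stress-induced cofactor of transcription, was 5.35-fold higher. Of the 13 ER folding genes, 1 was called lower (7.69%), Hsp90b1, the ER member of the HSP90 family, at 1.22-fold. Xbp1, Eif2ak3, the gene of PERK, and Ddit4 were also called lower, while Atf4 mRNA stood at 436 ± 75.0 and 437 ± 72.3 CPM (SD, n = 3 libraries per line). In RNA from whole cultures, fewer cells with a transcript and less of it per cell cannot be told apart. Of the 32 genes, all of which passed the filter on low counts, 5 were called higher and 4 lower, and 23 were not called (edgeR's quasi-likelihood test, adjusted p below 0.05 over all genes tested). The called share of 28.1% lay below the 33.9% of all 12313 tested genes, of which 17.9% were called higher and 16.1% lower. The set thus held no larger a share of calls than the background. In 5 genes every MOSE-PAX8 library lay above every MOSE-NEO library (25.3% of all tested genes) and in 6 below (22.2%), while 21 overlapped; over all tested genes 47.6% did not overlap. Leaving out the lincRNA-rich libraries gave 7 called higher and 4 lower.

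**Figure D1:**
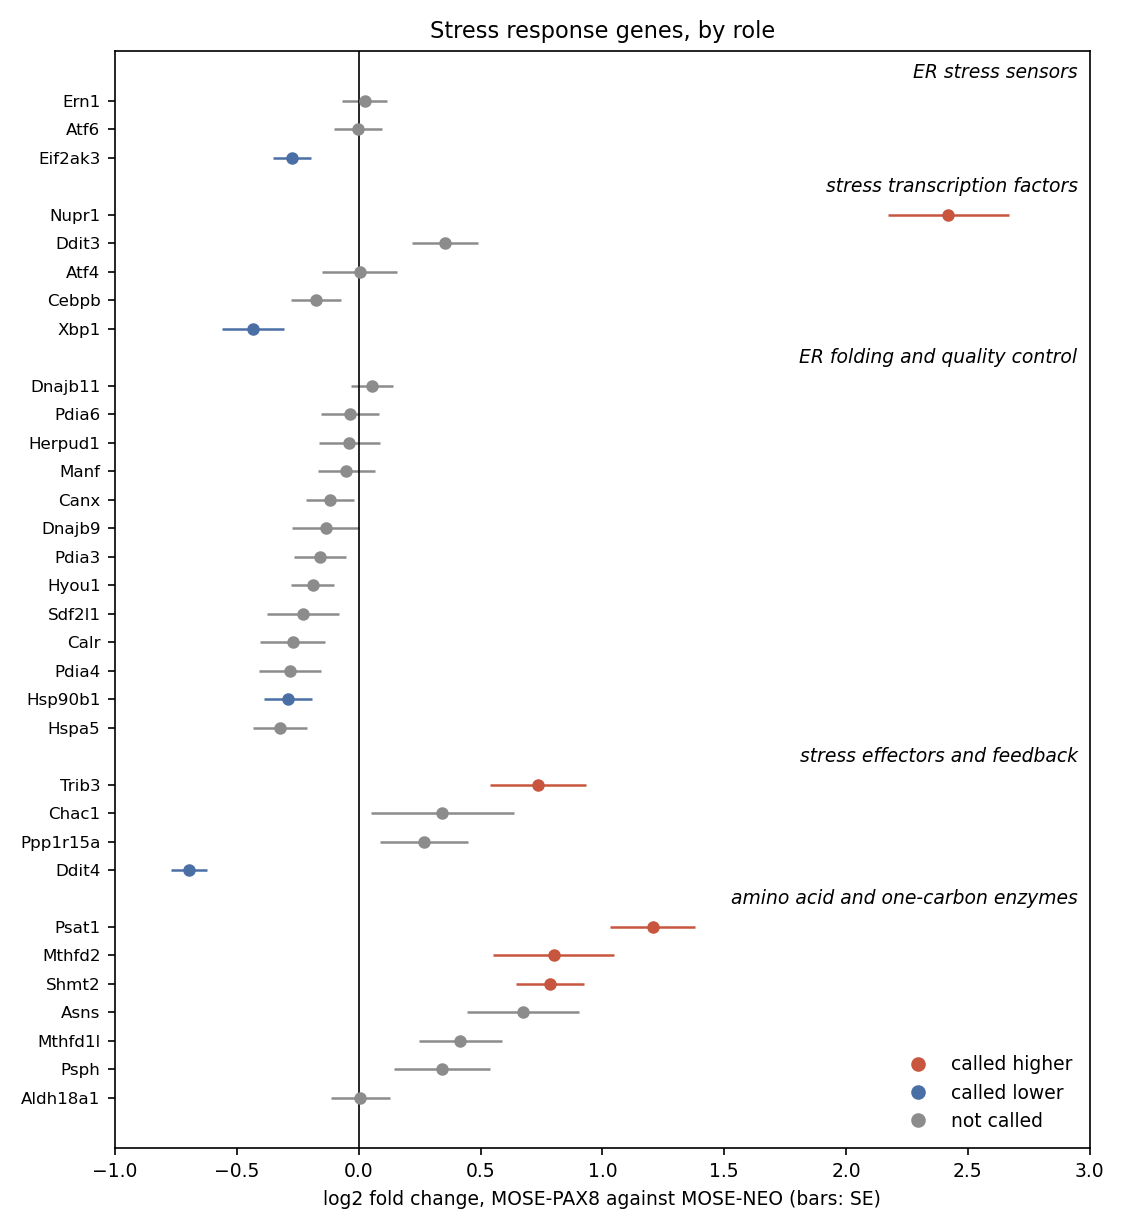
Log2 fold change (MOSE-PAX8 over MOSE-NEO) of the 32 genes by role, with bars of 1 SE; coloured points passed an adjusted p of 0.05. All 7 amino acid and one-carbon enzymes lie above 0 (Aldh18a1 was at -0.005 with RLE factors) and 12 of 13 ER folding genes lie below 0, of which only Hsp90b1 was called, while Nupr1 stands at 2.42.

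Binding elements of the 2 arms were looked for in the promoters, since they are the DNA letters through which the sensors and ATF4 are known to act. The window ran from 250 bases before to 50 bases after the RefSeq start (GRCm38.p6), and 29 of the 32 genes had an entry; Atf6, Hyou1 and Manf are named only. The ER stress response element (ERSE, CCAAT and CCACG separated by 9 bases of any kind, known as a site for ATF6 with NF-Y) was matched on either strand in the promoters of Hspa5, Hsp90b1, Calr, Canx and Pdia6, 5 of the 11 ER folding genes with an entry, and in no promoter of the other roles. Hsp90b1 held 2 copies. Over all 32851 mouse promoters of the same length the element was in 39, or 0.119%. The sequences are shown because these 5 abundant chaperones share the element, with its fixed ends in capitals, 5′ to 3′ on the strand of the gene; an element on the opposite strand reads CGTGG and ATTGG.
Hspa5 (chr2:34772020-34772049, + strand): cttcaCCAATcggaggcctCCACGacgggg
Hsp90b1 (chr10:86705525-86705664, - strand): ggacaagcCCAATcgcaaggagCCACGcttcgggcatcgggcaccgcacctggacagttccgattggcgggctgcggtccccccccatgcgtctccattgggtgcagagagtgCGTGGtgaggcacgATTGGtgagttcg
Calr (chr8:84847052-84847111, - strand): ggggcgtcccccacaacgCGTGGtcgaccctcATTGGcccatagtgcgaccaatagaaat
Canx (chr11:50325779-50325838, - strand): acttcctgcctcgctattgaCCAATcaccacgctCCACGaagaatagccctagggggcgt
Pdia6 (chr12:17266469-17266528, + strand): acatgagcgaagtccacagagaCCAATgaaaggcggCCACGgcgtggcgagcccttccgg

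A related element, ERSE-II (ATTGG and CCACG separated by 1 base), was matched in Herpud1 and Dnajb11 and in 12 of all promoters (0.0365%). The ATF4 element CARE (TGATGCAAT) was matched only in Nupr1 among the 29 genes and in 0.192% of all promoters. Its core TGATGCAA, which is contained in the longer element, was matched in Nupr1, Chac1 and Herpud1 and in 0.895% of all promoters. None of the 7 enzyme genes held either exact sequence in this window. The core was in 4 of the 7 tRNA synthetase genes with a promoter entry, of 12 listed. It was in 7 of the 17 other ATF4 target genes with an entry, of 18 listed. The UPRE core TGACGTGG, known as a site for XBP1 and ATF6, was in 0 of the 29 genes and in 0.676% of all promoters. A match describes letters, and no match covers only these exact letters in this window. Variants of the elements were not looked for, so no match does not mean that a gene lacks a site. The 3 promoters with an ATF4 core are shown with the elements in capitals: the core reads TTGCATCA on the opposite strand, in Nupr1 it extends by 1 base to the longer element, and Herpud1 also carries ERSE-II. The stretches of Hspa5 and Nupr1 are ahead of the RefSeq start and overlap an exon of a GENCODE transcript of the same gene.
Herpud1 (chr8:94386309-94386398, + strand): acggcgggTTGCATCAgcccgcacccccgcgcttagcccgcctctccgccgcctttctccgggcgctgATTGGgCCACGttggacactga
Nupr1 (chr7:126625561-126625590, - strand): aagggccagATTGCATCAgacagggcttgg
Chac1 (chr2:119351027-119351076, + strand): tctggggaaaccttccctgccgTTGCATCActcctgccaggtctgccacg

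**Figure D2:**
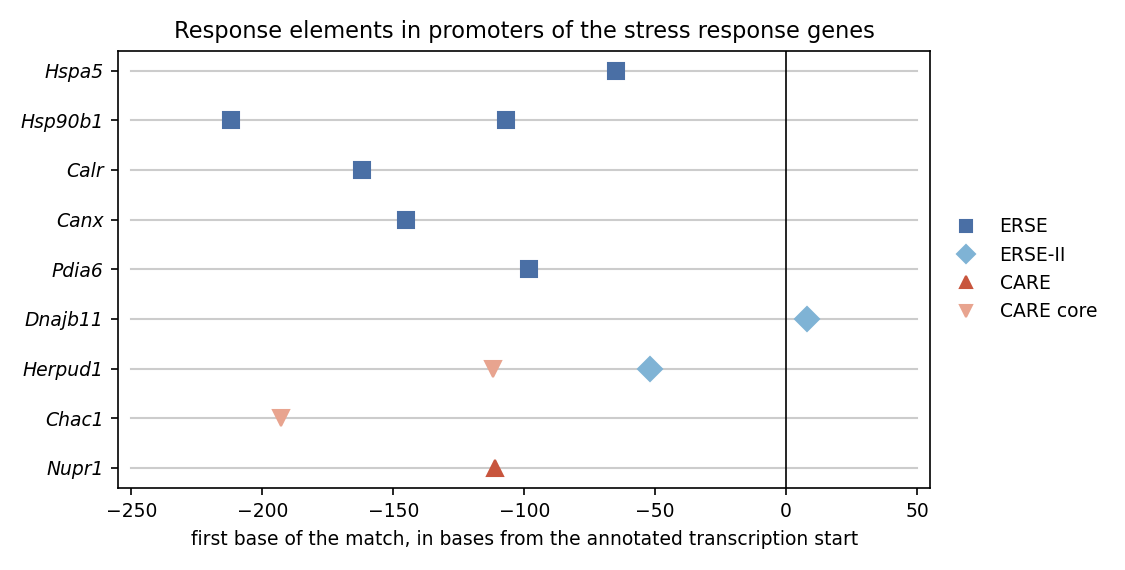
Position of each matched element in bases from the transcription start (0), for the 9 genes of the set with a match, coloured by element. The ERSE copies lie between -212 and -65 bases, and the ATF4 elements of Chac1, Herpud1 and Nupr1 at -193, -112 and -111.

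Of the 3 sensors, Eif2ak3 (PERK; chr6:70844515-70905245, mm10, + strand) alone was called. It stood at 39.9, 36.95 and 36.45 CPM in MOSE-NEO libraries 1 to 3 and at 31.0, 32.4 and 30.2 CPM in MOSE-PAX8 libraries 1 to 3. Every MOSE-PAX8 library was below every MOSE-NEO library, by a small step. It fell 1.21-fold (log2 fold change -0.27 ± 0.08 SE, adjusted p = 0.0238, edgeR quasi-likelihood test with Benjamini-Hochberg adjustment, n = 3 libraries per line). The call was lost without MOSE-NEO 1 (adjusted p = 0.0596), MOSE-PAX8 1 (0.0734) or MOSE-PAX8 3 (0.105), and with the median change of genes within 5 Mb removed (0.0627). Ern1, which encodes IRE1, was at 93.6 ± 9.96 CPM (SD, n = 3) in MOSE-NEO and at 95.2 ± 5.71 CPM in MOSE-PAX8, and Atf6 at 279 to 348 CPM over the 6 libraries. Their libraries overlapped and their log2 fold changes were 0.02 ± 0.09 and -0.00 ± 0.10 (SE). These are levels of the sensors' mRNA, not of their activity.

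Among the transcription factors, Nupr1 (chr7:126623249-126630861, mm10, - strand) differed most. Its level was 1.87, 1.26 and 1.69 CPM in MOSE-NEO and 8.48, 6.47 and 11.2 CPM in MOSE-PAX8. All MOSE-PAX8 libraries lay above all MOSE-NEO libraries, and the rise was 2.42 ± 0.25 (SE) on the log2 scale (adjusted p = 0.000168, same test). It was also the least abundant of the 32 genes per kilobase of exon, so the fold stands on a low level. Xbp1 (chr11:5520659-5525893, mm10, + strand), the target of IRE1, went the other way, from 193, 208 and 164 CPM in MOSE-NEO to 154, 149 and 116 CPM in MOSE-PAX8. The groups did not overlap, and Xbp1 fell 1.35-fold (log2 -0.43 ± 0.13, adjusted p = 0.031). That call was lost without MOSE-NEO 1 (adjusted p = 0.0731), MOSE-NEO 2 (0.103) or MOSE-PAX8 3 (0.102), without the lincRNA-rich libraries (0.08) and with the local chromosome median removed (0.0813).

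Atf4, the factor at the centre of the integrated stress response, did not pass the test. It stood at 434, 361 and 511 CPM in MOSE-NEO and at 443, 362 and 506 CPM in MOSE-PAX8. The 2 ranges coincided, and the log2 fold change was 0.01 ± 0.15 (SE). Ddit3, which encodes the pro-apoptotic factor CHOP, was at 29.0, 20.1 and 29.2 CPM in MOSE-NEO and at 34.0, 32.6 and 33.7 CPM in MOSE-PAX8. Its groups did not overlap, but at 0.35 ± 0.14 on the log2 scale the adjusted p was 0.0794. Cebpb, a partner of ATF4 on DNA, ranged from 54.9 to 70.9 CPM, with a log2 fold change of -0.18 ± 0.10. Its adjusted p of 0.226 became 0.0497 without MOSE-NEO 1 and rose to 0.502 in another alternative. Counts of Ddit3 and Cebpb carry a further limit, since 3.97% of the exon bases of Ddit3 overlap Mars and 20.7% of those of Cebpb overlap Tmem189, both on the opposite strand, and the strand setting of the counting is not given in the sources used here. Another 6.13% of Ddit3 overlaps a further Ddit3 gene model that is not among the counted genes.

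**Figure D3:**
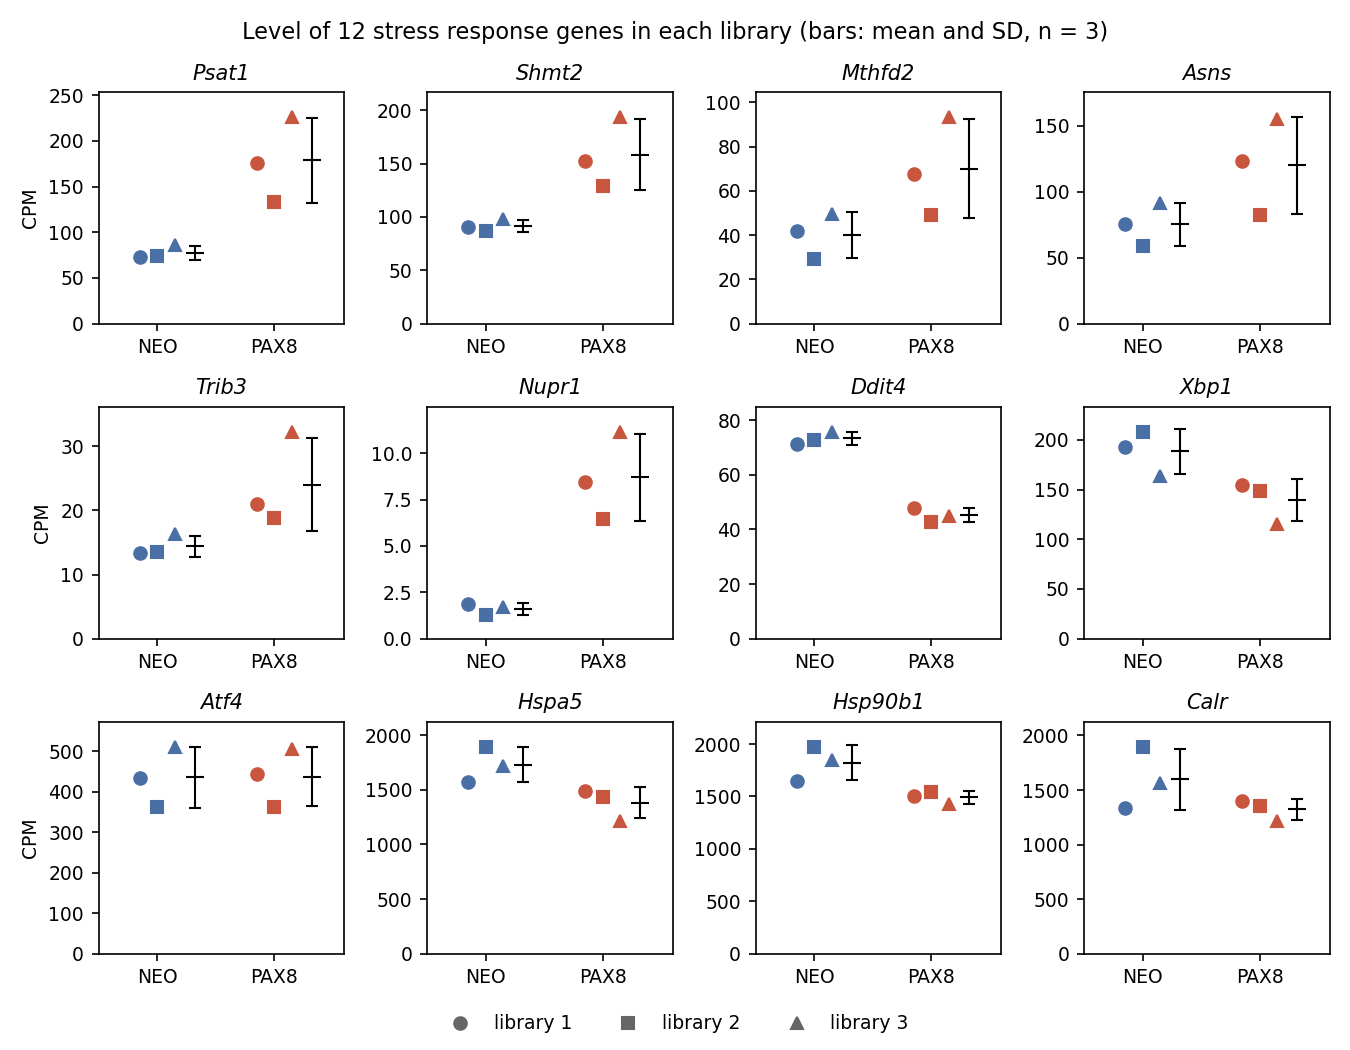
CPM of 12 genes of the set, with 1 point per library (circle, square and triangle for libraries 1, 2 and 3) and the mean with its SD beside them, on axes that start at 0. Psat1, Shmt2, Trib3 and Nupr1 lie wholly above in MOSE-PAX8 and Ddit4, Xbp1, Hspa5 and Hsp90b1 wholly below, while the lines coincide for Atf4.

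The most abundant genes of the set were ER folding and quality control genes. Per kilobase of annotated exon, Calr (554.5 ± 98.5 CPM per kb, SD, n = 3, in MOSE-NEO), Pdia3 (525.5 ± 58.8), Hsp90b1 (452 ± 41.1), Hspa5 (409 ± 37.7) and Canx (221 ± 18.7) led all 32 genes, ahead of Atf4 (185 ± 31.8). Calr and Pdia3 did not differ beyond their spread. The lectin chaperones calreticulin and calnexin hold glycoproteins during folding, and Pdia3 works with them. At the other end stood Eif2ak3 (6.27 ± 0.309 CPM per kb), Psph (5.89 ± 0.362), Mthfd1l (3.25 ± 0.392) and Nupr1 (0.640 ± 0.125). On the CPM scale, 31 of the 32 genes reached a mean of 10 CPM in either line, the exception being Nupr1.

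Of the 13 ER folding genes, 1 was called lower (7.69%, under the 16.1% of all tested genes) and 0 higher, and 3 had every MOSE-PAX8 library below every MOSE-NEO library, near the 22.2% of all tested genes. At an unadjusted p under 0.05, 2 of the 13 were lower and 0 higher, without a share of all tested genes to set beside them. DESeq2 called 2 of the 13 lower and 0 higher, and 2082 of all tested genes lower. Hsp90b1 (chr10:86690209-86705509, mm10, - strand), whose promoter carries the paired ERSE copies shown earlier, stood at 1646, 1974 and 1851 CPM in MOSE-NEO and at 1508, 1542 and 1424 CPM in MOSE-PAX8. The lines did not overlap and it fell 1.22-fold (log2 -0.29 ± 0.10, adjusted p = 0.0483, edgeR). This call stood at the threshold: it was lost without MOSE-NEO 2 (adjusted p = 0.148), MOSE-NEO 3 (0.109), MOSE-PAX8 1 (0.104), MOSE-PAX8 2 (0.0636) or MOSE-PAX8 3 (0.18), and with upper-quartile factors (0.0621) or no filter (0.0601). Hspa5, which encodes BiP, the main ER chaperone and the brake on all 3 sensors, stood at 1573, 1892 and 1718 CPM in MOSE-NEO and at 1491, 1432 and 1218 CPM in MOSE-PAX8. Its libraries did not overlap either, with a log2 fold change of -0.32 ± 0.11 and an adjusted p of 0.0544. That adjusted p became 0.00847 with DESeq2 and 0.0441 without MOSE-NEO 1, and it rose to 0.255 in another alternative.

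Hyou1, an exchange factor for BiP, was the other ER folding gene with all MOSE-PAX8 libraries (302 to 341 CPM) below all MOSE-NEO libraries (349 to 402 CPM), at -0.19 ± 0.09 (adjusted p = 0.139). The other 10 overlapped between the lines. Calr was at 1332 to 1896 CPM in MOSE-NEO and at 1216 to 1403 CPM in MOSE-PAX8 (-0.27 ± 0.13), and Canx at 947 to 1122 CPM and 880 to 997 CPM (-0.12 ± 0.10). Of the disulfide isomerases, Pdia4 was at 243 to 352 CPM and 238 to 252 CPM (-0.28 ± 0.13), with Pdia3 at -0.16 ± 0.11 and Pdia6 at -0.04 ± 0.12. The BiP co-chaperone genes Sdf2l1 (37.4 to 60.6 CPM over the 6 libraries), Dnajb9 (38.2 to 53.7 CPM) and Dnajb11 (126 to 152 CPM) gave -0.23 ± 0.15, -0.13 ± 0.14 and 0.06 ± 0.09, the last being the exception in sign: 12 of the 13 had estimates below 0, as had 6016 of the 12313 tested genes. Manf, a secreted ER stress factor, was at -0.05 ± 0.12, and Herpud1, an adaptor of ER-associated degradation whose promoter carries both kinds of element, at -0.04 ± 0.12. None of these 10 passed the test with all libraries. The adjusted p of Pdia4 and Calr rose to 0.359 and 0.45 in other alternatives, but was 0.0137 and 0.0441 without MOSE-NEO 1. Of the 13, 4 were thus called lower without MOSE-NEO 1 and 0 without any 1 of the other libraries. The median log2 fold change of the 13 was -0.16, beside 0.01 over all genes tested, whose median absolute change was 0.235. Relative to the MOSE-NEO mean, the median of the 13 was -0.08, -0.24 and -0.29 in MOSE-PAX8 libraries 1 to 3. It was -0.169, 0.122 and 0.006 in MOSE-NEO libraries 1 to 3, so MOSE-PAX8 1 lay within the range of MOSE-NEO. MOSE-NEO 1 held the lowest MOSE-NEO value for 11 of the 13 genes, against 37.1% of all tested genes.

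The effectors and feedback genes split. Trib3 (chr2:152337422-152344032, mm10, - strand), a pseudokinase induced by ATF4 and CHOP that restrains AKT and ATF4, stood at 13.3, 13.6 and 16.3 CPM in MOSE-NEO and at 20.98, 18.8 and 32.2 CPM in MOSE-PAX8. No library of one line reached the other, with MOSE-PAX8 3 the highest. Trib3 rose by 0.73 ± 0.20 on the log2 scale (adjusted p = 0.02), and the call was lost without MOSE-NEO 1 (0.0691) or MOSE-NEO 2 (0.0708). Ddit4 (chr10:59949669-59951834, mm10, - strand), known as REDD1, an inhibitor of mTORC1 that stress and hypoxia induce, went the other way, from 71.4, 72.8 and 75.7 CPM to 47.97, 42.8 and 44.97 CPM. The libraries of each line lay close together and the lines were well apart. Ddit4 fell by 0.70 ± 0.07 on the log2 scale (1.62-fold, adjusted p = 0.000203).

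Chac1, a glutathione-degrading enzyme induced by ATF4, was at 17.3 to 33.9 CPM in MOSE-NEO and 20.6 to 43.8 CPM in MOSE-PAX8, at 0.34 ± 0.29 (adjusted p = 0.414). Ppp1r15a, the GADD34 subunit that directs a phosphatase to eIF2alpha, was at 16.1 to 24.1 CPM and 20.2 to 27.6 CPM, at 0.27 ± 0.18 (adjusted p = 0.297, 0.0393 without MOSE-NEO 3, and up to 0.746 in another alternative). Both overlapped between the lines. In each line, both genes were highest in library 3 and lowest in library 2.

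The enzymes of serine, one-carbon, asparagine and proline synthesis had the highest median of the 5 roles. All 7 had log2 fold changes above 0, although Aldh18a1 was at -0.005 with RLE factors, and their median was 0.68. Of the 7, 3 were called higher (42.9%, against 17.9% of all tested genes) and 0 lower. In 2 of the 7 every MOSE-PAX8 library lay above every MOSE-NEO library, as in 25.3% of all tested genes, and 5 overlapped. At an unadjusted p under 0.05, 5 of the 7 were higher and 0 lower. No share of all tested genes is given here for that threshold, so this count is not a result about the enzymes. DESeq2 called 3 higher and 0 lower, and 2112 of all tested genes higher. Psat1 (chr19:15904678-15947337, mm10, - strand), the transaminase of the serine pathway, stood at 72.6, 73.7 and 85.8 CPM in MOSE-NEO and at 176, 134 and 226 CPM in MOSE-PAX8. Every MOSE-PAX8 library was above every MOSE-NEO library, the closest being MOSE-PAX8 2. Psat1 rose by 1.21 ± 0.17 on the log2 scale (adjusted p = 0.00104). Shmt2 (chr10:127517123-127522444, mm10, - strand), which moves a carbon from serine to folate in mitochondria, stood at 91.0, 86.8 and 97.7 CPM in MOSE-NEO and at 153, 129 and 194 CPM in MOSE-PAX8. Its lines did not overlap, and it rose by 0.79 ± 0.14 (adjusted p = 0.00288).

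Mthfd2 (chr6:83305691-83325908, mm10, - strand), the next mitochondrial folate enzyme, stood at 41.7, 29.1 and 49.7 CPM in MOSE-NEO and at 67.6, 49.2 and 93.4 CPM in MOSE-PAX8. The lines overlapped, since MOSE-PAX8 2 lay below MOSE-NEO 3. It rose by 0.80 ± 0.25 (adjusted p = 0.0359), a call lost without MOSE-NEO 1 (0.0853), MOSE-NEO 2 (0.113), MOSE-PAX8 1 (0.0677) or MOSE-PAX8 3 (0.121), with DESeq2 (0.0639) and with the local chromosome median removed (0.0561). Asns (chr6:7675169-7693254, mm10, - strand), asparagine synthetase, a standard readout of ATF4, stood at 75.2, 58.9 and 91.5 CPM in MOSE-NEO and at 123, 82.2 and 155 CPM in MOSE-PAX8. MOSE-PAX8 2 again lay below MOSE-NEO 3, and at 0.67 ± 0.23 the adjusted p was 0.051. It became 0.00694 with DESeq2, 0.00479 without MOSE-PAX8 2 and 0.0288 without MOSE-NEO 3, and it rose to 0.176 in another alternative. Leaving out the lincRNA-rich libraries gave 0.029 for Asns. Of the 7 enzymes, 2 were called higher without MOSE-NEO 1, MOSE-NEO 2, MOSE-PAX8 1 or MOSE-PAX8 3, and 6 without MOSE-PAX8 2.

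Psph, the phosphatase that completes serine synthesis, was at 23.7 to 26.5 CPM in MOSE-NEO and 21.8 to 41.0 CPM in MOSE-PAX8, at 0.34 ± 0.20 (adjusted p = 0.224). Mthfd1l, which releases formate in mitochondria, was at 12.7 to 16.2 CPM and 14.99 to 23.9 CPM, at 0.42 ± 0.17 (adjusted p = 0.092). Without MOSE-PAX8 2 these became 0.00538 and 0.0157, and in other alternatives they rose to 0.651 and 0.317. Aldh18a1, of proline synthesis, was at 110.4 to 123 CPM and 96.6 to 136 CPM, at 0.01 ± 0.12. Its lines overlapped and its sign turned under other settings. For Psph, 10.4% of exon bases overlap Cct6a on the opposite strand, and for Hsp90b1 10.3% overlap 1810014B01Rik. Of the 32 genes, 0 had a stretch of 100 bases or more at 95% identity in another annotated gene.

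The libraries of a line also differed among themselves. All 7 enzymes were highest in MOSE-PAX8 3 and lowest in MOSE-PAX8 2, an order that 20.2% of all tested genes had, and 3 of 4 effectors and 1 of 13 ER folding genes had it. In MOSE-NEO, 6 of the 7 enzymes were highest in library 3 and 6 were lowest in library 2. Relative to the MOSE-NEO mean, the median of the enzymes was 0.71, 0.13 and 1.05 on the log2 scale in MOSE-PAX8 libraries 1 to 3. The median of the enzymes minus that of the ER folding genes was 0.79, 0.36 and 1.33 in MOSE-PAX8 libraries 1 to 3, and 0.83 from the fitted fold changes. In MOSE-NEO the median of the enzymes was also above that of the ER folding genes in libraries 1 (-0.001 and -0.169) and 3 (0.149 and 0.006). In MOSE-NEO 2 it was below (-0.106 and 0.122). MOSE-PAX8 2, where the difference was the smallest of the MOSE-PAX8 line, is the MOSE-PAX8 library with more lincRNA. In MOSE-NEO the lincRNA-rich library was not the lowest: the median of the enzymes was -0.001 in MOSE-NEO 1 and -0.106 in MOSE-NEO 2, which had 0.162% lincRNA. The enzyme median was 0.149 in MOSE-NEO 3, above the 0.128 of MOSE-PAX8 2, so the enzyme medians of the lines overlapped. A link between lincRNA share and enzyme level was not tested. Without both lincRNA-rich libraries the difference of the medians was 1.10 from the fitted fold changes.

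**Figure D4:**
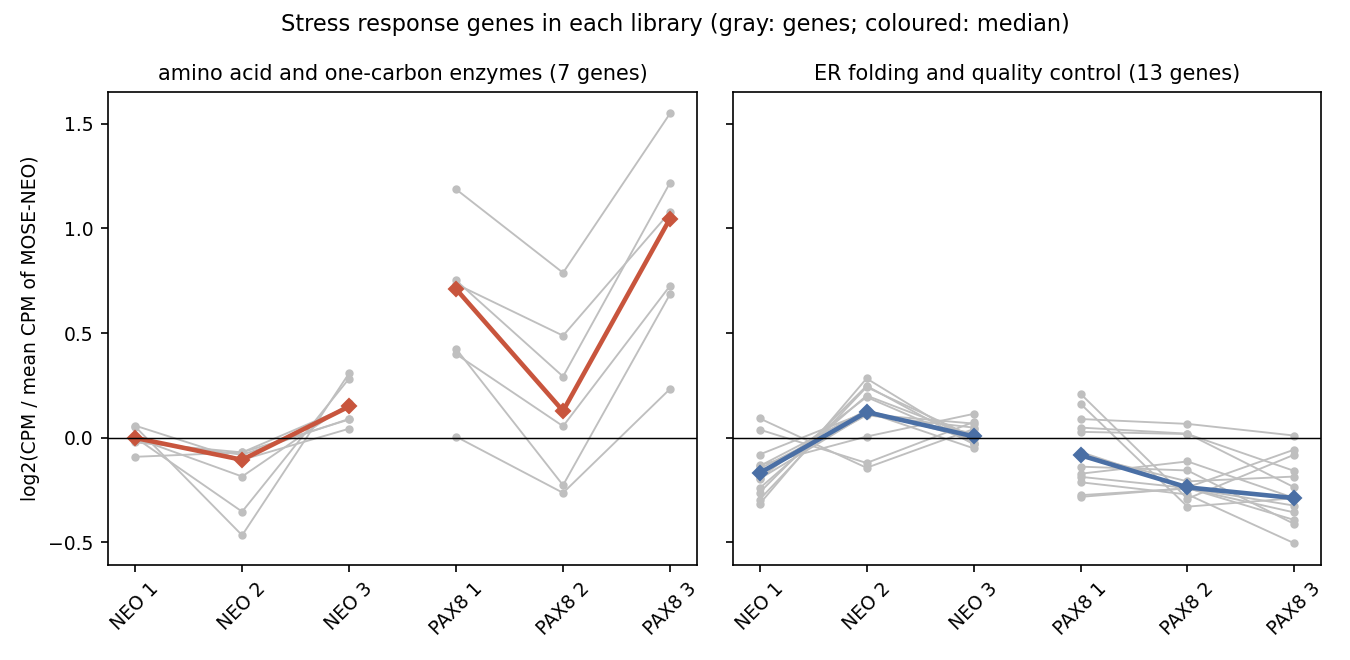
Log2 level of the 7 enzymes (left) and 13 ER folding genes (right) relative to the MOSE-NEO mean in each of the 6 libraries, with grey lines for single genes and the median coloured. The median of the enzymes reaches 0.71, 0.13 and 1.05 in MOSE-PAX8 libraries 1 to 3, while that of the ER folding genes lies at -0.08, -0.24 and -0.29. In MOSE-NEO libraries 1 to 3 the medians lie at -0.001, -0.106 and 0.149 for the enzymes and at -0.169, 0.122 and 0.006 for the ER folding genes.

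Beyond the set, the other genes of the pathway were counted by list. Of 17 other ATF4 targets tested, 10 were called higher and 1 lower (58.8% higher against 17.9% of all tested genes), with a median log2 fold change of 0.48, and 7 to 12 were higher over the alternatives other than the test against a fold of 1.5. Gdf15, a stress-induced cytokine, rose 10.9-fold, from 0.985, 0.348 and 1.30 CPM to 8.48, 10.9 and 10.4 CPM (log2 3.45 ± 0.33, adjusted p = 0.000122). Vldlr, a lipoprotein receptor, had 1, 1 and 0 counts in MOSE-NEO and 56, 63 and 126 in MOSE-PAX8, a ratio of 103 with a 95% counting interval of 28.2 to 854. Both genes were low in MOSE-NEO and their libraries did not overlap between the lines. Sesn2, like Ddit4 an inhibitor of mTORC1, was the one called lower, from 95.02 ± 1.77 to 73.0 ± 6.88 CPM (-0.38 ± 0.08, adjusted p = 0.00786). Slc7a5, a large neutral amino acid transporter chosen after its values were seen, rose by 2.24 ± 0.27 (adjusted p = 0.00038).

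Of 12 tRNA synthetases, which charge tRNAs with amino acids, 4 were called higher (33.3%, against 17.9% of all tested genes) and 0 lower, with a median of 0.27. At an unadjusted p under 0.05, again without a share of all tested genes, 7 were higher and 0 lower. DESeq2 called 5 higher and 0 lower. Sars, for serine, rose from 102 ± 8.89 to 194 ± 30.7 CPM (SD, n = 3; log2 0.93 ± 0.12, adjusted p = 0.00072), and Wars, for tryptophan, from 56.6 ± 6.52 to 79.3 ± 2.91 CPM (0.49 ± 0.09, adjusted p = 0.00415). All 12 were highest in MOSE-PAX8 3 and lowest in MOSE-PAX8 2, as the 7 enzymes were. Without MOSE-PAX8 2, or without both lincRNA-rich libraries, 8 of the 12 were called higher. Of 12 other serine, folate and proline genes, 4 were called higher (33.3%, against the same 17.9%) and 0 lower. The counts were 5 and 0 at an unadjusted p under 0.05, again without a share of all tested genes, and 4 and 0 with DESeq2. Without MOSE-NEO 1, MOSE-PAX8 1 or MOSE-PAX8 3, 2 were called higher. Shmt1, the cytosolic counterpart of Shmt2, rose from 22.3 ± 1.56 to 38.0 ± 3.85 CPM (0.77 ± 0.10, adjusted p = 0.000597). Phgdh, the entry to serine synthesis, rose from 42.9 ± 4.97 to 66.4 ± 11.9 CPM (0.63 ± 0.14, adjusted p = 0.00831), but 89.5% of its transcript has near-identical copies in other genes, so its count is uncertain.

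Of 27 other ER folding and degradation genes, 7 were called lower and 1 higher (25.9% lower against 16.1% of all tested genes), with a median of -0.18. Edem1, which marks misfolded glycoproteins for degradation, fell from 177 ± 11.96 to 107 ± 5.49 CPM (-0.72 ± 0.08, adjusted p = 0.000283). Dnajc3, a BiP co-chaperone and inhibitor of PERK, fell from 231 ± 4.67 to 143 ± 12.2 CPM (-0.70 ± 0.08, adjusted p = 0.000371); the 18 tested genes within 5 Mb of it had a median of -0.44. Fkbp2, an ER prolyl isomerase, was the one called higher, from 28.5 ± 2.57 to 39.8 ± 1.87 CPM (0.48 ± 0.09, adjusted p = 0.00355), while 6 of the 27 had estimates above 0. Over the alternatives other than the test against a fold of 1.5, 6 to 10 of the 27 were called lower and 1 higher. The test against a fold of 1.5 called 0 lower and 0 higher of the 27, and 370 lower of all tested genes.

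Of 13 other kinases, phosphatases and exchange factors around eIF2alpha, 2 were called higher (15.4%) and 1 lower (7.69%), both under the 17.9% and 16.1% of all tested genes. Eif2s1, which encodes eIF2alpha itself, rose from 112 ± 8.19 to 156 ± 8.18 CPM (0.48 ± 0.08, adjusted p = 0.00258), but 27.9% of its transcript has near-identical copies in other genes. Eif2b2, a subunit of its exchange factor, was at 41.9 ± 4.15 and 50.8 ± 2.51 CPM (0.28 ± 0.09, adjusted p = 0.0456), a call lost in 12 alternatives besides the test against a fold of 1.5. Eif2ak2, the kinase PKR, fell from 104 ± 1.71 to 84.96 ± 3.95 CPM (-0.29 ± 0.07, adjusted p = 0.0125), lost without MOSE-PAX8 1 (0.0569). Of 9 other ER stress transcription and cleavage factors, edgeR called 0, DESeq2 called 2 lower and limma-voom 0. At an unadjusted p under 0.05, again without a share of all tested genes, 2 were lower. The most abundant of these, Creb3l2 and Creb3l1, had adjusted p of 0.0947 and 0.0675 at -0.20 ± 0.08 and -0.32 ± 0.12.

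Chaperones of other compartments were set beside those of the ER. Of 13 cytosolic heat shock genes, 3 were called lower (23.1%, against 16.1% of all tested genes) and 0 higher, with a median of -0.16. At an unadjusted p under 0.05, again without a share of all tested genes, 1 was higher, and DESeq2 called 0 higher. Without MOSE-PAX8 3, 1 was called lower. Hsph1, a cytosolic exchange factor, fell from 247 ± 13.9 to 189 ± 19.6 CPM (-0.39 ± 0.10, adjusted p = 0.0142), lost without MOSE-PAX8 3 (0.0633) or the lincRNA-rich libraries. Hspa1b was at 7.22 ± 1.59 and 2.71 ± 0.479 CPM (-1.41 ± 0.21, adjusted p = 0.00124), with 78.5% of its transcript near-identical to other genes and so uncertain. The other gene called lower, Hspa8, named after its values were seen, is uncertain too, with 84.5% of its transcript near-identical to other genes. Its lines overlapped (-0.45 ± 0.14, adjusted p = 0.0374), and the call was lost without MOSE-NEO 1 (0.108) or MOSE-PAX8 3 (0.133), among other alternatives. Of 10 mitochondrial chaperones and proteases, 2 were called higher (20%) and 1 lower (10%), close to the shares of all tested genes, with a median of 0.03. The protease Lonp1, also a known ATF4 target, rose from 116 ± 5.92 to 156 ± 14.9 CPM (0.43 ± 0.09, adjusted p = 0.00631). Hspd1 (0.24 ± 0.08, adjusted p = 0.0475, with 71.1% of its transcript near-identical to other genes) lost its call in 9 alternatives, and Yme1l1 (-0.32 ± 0.09, adjusted p = 0.0273) in 6, besides the test against a fold of 1.5.

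**Figure D5:**
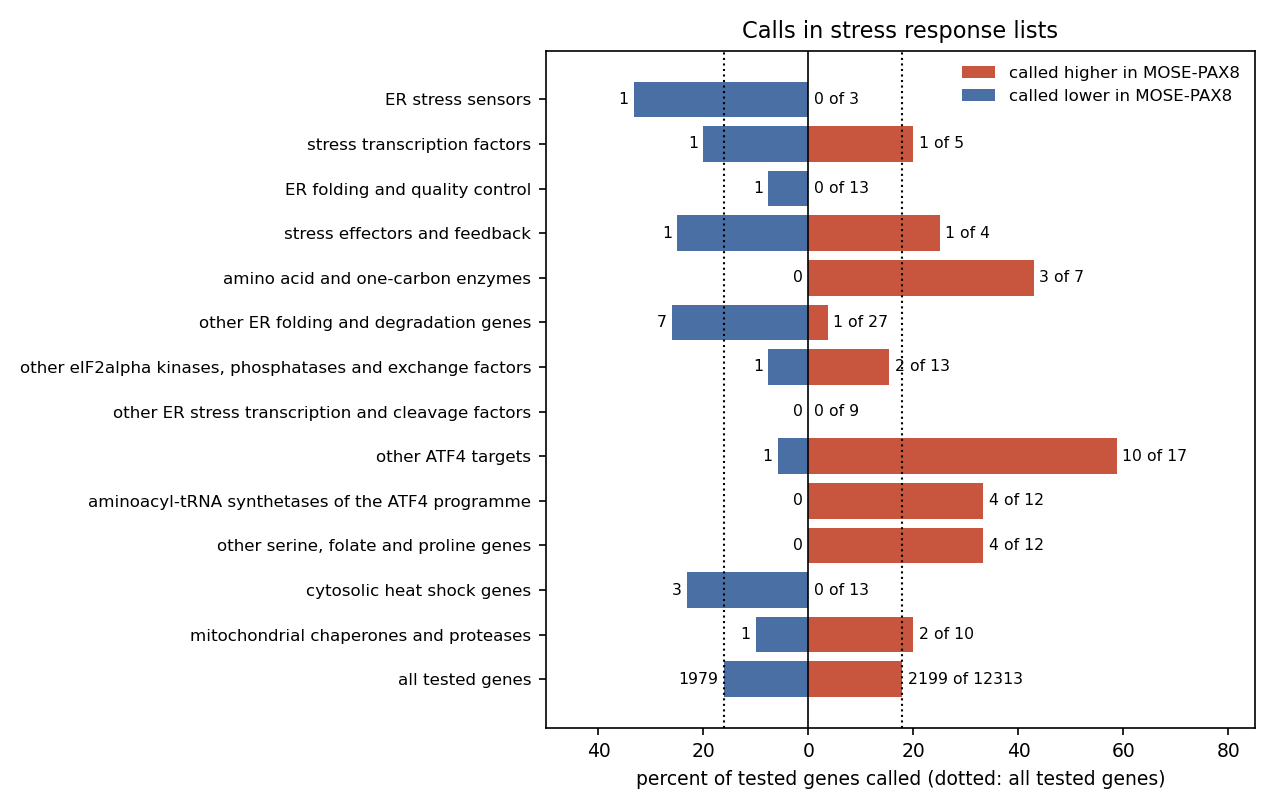
Percent of the tested genes of each list called higher (right) or lower (left) in MOSE-PAX8, with counts beside the bars and dotted lines at the shares of all tested genes. Other ATF4 targets reach 58.8% higher and the enzymes of the set 42.9%, while other ER folding genes reach 25.9% lower, against 17.9% and 16.1% of all genes.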

How the data were processed

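Total RNA of 3 MOSE-NEO and 3 MOSE-PAX8 libraries was sequenced, and the titles gave the groups. The deposited values are raw counts per Ensembl gene for 25006 genes, made by the authors with cutadapt 1.13, STAR, HTSeq 0.6.1p1 and the mm10 build, with DESeq2 also listed, per the submitters' processing notes. Nothing is stated on the annotation, on strand or on multiply aligned reads (not given in the sources used here), so overlapping genes and near-identical copies are uncertain. Symbols, exon lengths and coordinates came from GENCODE M21 (24991 identifiers matched), and promoters from RefSeq GRCm38.p6 (29 of 32 genes matched).

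MOSE-PAX8 was compared with MOSE-NEO by the quasi-likelihood test of edgeR 4.0.16 (R 4.3.3) with TMM factors, filterByExpr and Benjamini-Hochberg adjustment over 12313 tested genes, called at an adjusted p below 0.05. CPM use the TMM factors, and a log2 fold change above 0 means a higher level in MOSE-PAX8. Copies were sought with blastn 2.17.0, and protein sequences were not used here. Alternatives were DESeq2 1.42.0, limma-voom (limma 3.58.1), RLE and upper-quartile factors, other filters, replicate numbers as a block, each library or both lincRNA-rich libraries left out, the local chromosome median (5 Mb each side) removed, and a test against a fold of 1.5. Library totals limit precision for Nupr1 and other low genes, and the counting interval covers counting error only.

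All members are accounted for. From each pathway list the text names up to 2 called genes a direction, by adjusted p, or the 2 most abundant if none was called, and others are marked as chosen after seeing values. The members and lists were chosen with earlier results of these data known, so no count over them is independent evidence.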

Additional observations from a re-analysis of the deposited data

How the results depend on the processing

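Over 16 alternatives, 419 results for single genes of the set kept their direction and side of the threshold, 33 lost their call, 24 gained one and 36 turned their sign. Nupr1 and Psat1 kept their calls in every alternative, and Shmt2 and Ddit4 in all but the test against a fold of 1.5 (adjusted p = 0.24 and 0.219). That test left 700 genes higher and 370 lower of all tested, and 2 higher and 0 lower of the set. Removing the local chromosome shift left 2 of the set lower. Leaving out 1 library at a time gave 1545 to 2065 genes higher and 1314 to 1843 lower, the lowest without MOSE-PAX8 3, and in the set 3 (without MOSE-NEO 1 or MOSE-NEO 2) to 8 (without MOSE-PAX8 2) higher and 1 (without MOSE-PAX8 3) to 6 (without MOSE-NEO 1) lower, with 2 lower without MOSE-NEO 2 or MOSE-PAX8 1. Over these the median was -0.234 to -0.12 for the ER folding genes and 0.449 to 0.886 for the enzymes, and their difference was 0.592 to 1.02. The causes were not tested.

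Over all tested genes, the replicate numbers did not pair the samples: deviations of same-numbered libraries correlated at -0.465, 0.0541 and 0.402, and MOSE-NEO 1 correlated best with MOSE-PAX8 2 (0.627). A pairing seen only in genes of the set was not tested. With the replicate number as a block, 9 genes of the set were called higher, Asns (adjusted p = 0.00152), Mthfd1l (0.0232), Chac1 (0.0234) and Ddit3 (0.0493) being the added ones.

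Log2 fold changes near 0 turned their sign. Without 1 library at a time they ranged from -0.037 to 0.108 for Ern1, -0.072 to 0.084 for Atf6, -0.125 to 0.139 for Atf4, -0.148 to 0.066 for Pdia6, -0.030 to 0.101 for Dnajb11, -0.146 to 0.046 for Manf, -0.182 to 0.072 for Herpud1 and -0.122 to 0.124 for Aldh18a1. With the local chromosome shift removed they were -0.036 for Ern1, 0.044 for Atf6, -0.056 for Atf4, -0.008 for Dnajb11, 0.032 for Manf and -0.196 for Aldh18a1. Without the lincRNA-rich libraries they were 0.080 for Atf6, -0.036 for Dnajb11 and 0.081 for Herpud1. DESeq2 and RLE factors each gave -0.006 for Atf4 and -0.005 for Aldh18a1, upper-quartile factors 0.018 for Atf6, no filter -0.001 for Atf4, and limma-voom -0.007 and the replicate block -0.006 for Aldh18a1.

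Beyond the calls given with the genes, Hspa5 passed with RLE factors (adjusted p = 0.048), Asns with upper-quartile factors (0.047), no filter (0.0213) and the local shift removed (0.0265), Mthfd1l (0.0227) and Dnajb9 (0.0246) with the local shift removed, and Pdia4 (0.0197) and Psph (0.0158) without the lincRNA-rich libraries. Hsp90b1 was lost with the block (0.0608) and with the local shift removed (0.0604).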
